A study of Caenorhabditis elegans with 6 samples.

Results

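The nuclear hormone receptor genes of Caenorhabditis elegans were followed here in whole adults of 3 strains that differ in CSR-1, an Argonaute protein that cuts RNA paired with its small guide RNAs. The members are the genes that the deposited table names nhr- followed by a number and that had 10 or more counts in at least 2 of 6 RNA sequencing libraries. Of 283 rows with such a name, 190 were kept, among 46748 genes in the table, and 189 of the 190 entered the statistical test together with 15215 other genes. The 93 rows left out were hardly transcribed in these animals: 13 had no count in any library, the median total over 6 libraries was 7 counts and the highest was 111. At the edge of the threshold, nhr-219 (kept but too low for the test) and nhr-216 were kept with a second-highest count of 10, and nhr-93 and nhr-258 were left out with a second-highest count of 9. Of the kept genes, 168 reached 10 counts in all 6 libraries, 6 reached it in 2 libraries, and 3 were kept through the N2 libraries alone.

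SIN is strain OD1175 and WT is strain OD1463; both carry the csr-1 deletion tm892 and transgenes, all homozygous, and their adults were picked by the way they moved from the offspring of balanced heterozygous mothers. N2, the usual laboratory strain, has neither the deletion nor a transgene. The labels do not spell out SIN; the study is known to have set a slicing-inactive CSR-1 (SIN) against the normal form (WT). There were 2 libraries per strain, each from 100 gravid adults kept at 20 °C on OP50 bacteria, so germline, eggs and all somatic tissues were read together.

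Nuclear hormone receptors are transcription factors with a zinc-finger DNA-binding domain and, in most of them, a pocket for a small fat-soluble ligand such as a steroid, a fatty acid or a bile-acid-like molecule. Nematodes carry a greatly expanded set, most of it descended from a relative of the vertebrate receptor HNF4, beside a small group of receptors with counterparts in insects and vertebrates. In worms the best-studied members govern moulting, fat desaturation and breakdown, the use of vitamin B12 and propionate, and responses to toxins and pathogens, many of them in the intestine and epidermis.

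The libraries held 39865531 and 34654600 counts in SIN, 42126710 and 33739391 in WT, and 44962816 and 42435429 in N2. The csr-1 transcript, which comes from the transgene as well as the remaining chromosomal sequence, stood at 2913 and 3308 CPM (counts scaled to library size, with TMM factors) in SIN, 662 and 636 CPM in WT, with 445 and 476 CPM in N2. The N2 libraries differed most from each other: among the receptor genes, log2 CPM of both replicates correlated across genes with r = 0.987 in SIN, 0.990 in WT and 0.962 in N2. The labels do not say whether the replicates were separate cultures, so p-values measure only how much these libraries differ, which may be technical. In whole worms, fewer cells of a type and less RNA per cell cannot be told apart.

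Receptor transcripts were a small share of the messenger RNA. They took 0.149% and 0.144% of the counts in SIN, 0.145% and 0.139% in WT, and 0.179% and 0.152% in N2, so the transgenic strains lay close together and below both N2 libraries. On a scale that corrects for gene length (RPKM, reads scaled to gene length and library size), the median receptor gene had a mean of 1.92 RPKM over the 6 libraries, against 5.83 RPKM for the median tested gene. Of the 190 genes, 129 (67.9%) reached 1 RPKM, against 74.6% of tested genes, and 39 reached 5 RPKM.

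The 6 most abundant receptor transcripts held 20.2% of the summed RPKM of the family. At the head of the order was nhr-49, which switches on fatty acid desaturation and fat breakdown, with 32.6 and 30.4 RPKM in SIN, 26.5 and 27.2 RPKM in WT and 31.9 and 27.5 RPKM in N2. Next came nhr-66, a partner of NHR-49 in lipid metabolism, with 33.0 and 28.3 RPKM in SIN, 24.1 and 22.9 RPKM in WT and 27.8 and 22.9 RPKM in N2. For nhr-66 both SIN libraries lay above all others, and for nhr-49 they lay above WT and overlapped N2. Exons of T09A12.5 and anr-44 overlap nhr-66 on the other strand. Neither gene differed from WT past the test (quasi-likelihood test of edgeR, Benjamini-Hochberg adjusted over all tested genes, adjusted p = 0.0957 for nhr-66 and 0.311 for nhr-49). Then followed nhr-17 with a mean over all libraries of 24.4 RPKM, nhr-86 with 24.2 RPKM, nhr-114 with 20.1 RPKM and nhr-274 with 19.4 RPKM. These means lie within the spread of the single libraries, so the order among them is not fixed.

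Among these leading genes nhr-114, which protects the germline of worms on diets poor in vitamin B12, was the least reproducible. It had 12.1 and 14.6 RPKM in SIN, 21.6 and 17.9 RPKM in WT, and 12.1 and 42.2 RPKM in N2. Both SIN values were below both WT values, but the N2 libraries spanned the whole range, and no comparison passed (adjusted p = 0.444 for SIN versus WT, 0.208 for SIN versus N2 and 0.684 for WT versus N2, edgeR). With only the 4 SIN and WT libraries in the fit, nhr-114 was lower in SIN than in WT past the threshold (log2 -0.66, adjusted p = 0.00576), and likewise without N2 replicate 1 or 2 (adjusted p = 0.00316 and 0.00352).

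**Figure D1:**
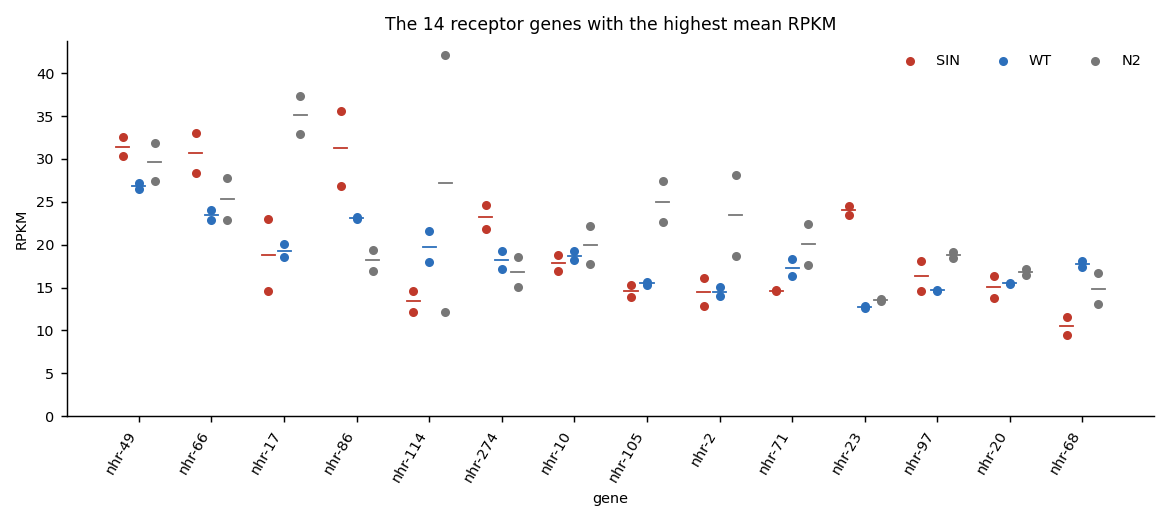
RPKM of the 14 receptor genes with the highest mean over all libraries, in order of that mean; each point is a library (2 per strain) and each bar the mean of SIN, WT or N2. The SIN points of nhr-23 lie above the points of both other strains, while nhr-114 shows N2 libraries at 12.1 and 42.2 RPKM.

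SIN and WT share the csr-1 deletion, and the study compared them to ask about slicing by CSR-1. The csr-1 transcript was itself higher in SIN than in WT (log2 2.26 ± 0.12, SE, adjusted p = 0.000223, edgeR), so the form of CSR-1 and the level of its transcript cannot be told apart in this comparison. Rose and fell are used here for genes past an adjusted p of 0.05 in edgeR's test. In SIN, 6 of 189 receptor genes rose (3.17%), where 12.1% of all tested genes rose, and 15 fell (7.94%), where 13.3% of all tested genes fell. Both shares were below those of all genes, and that difference was not tested. The median log2 fold change of SIN over WT was -0.05 for the receptor genes and 0.04 for all tested genes, but 0.09 and 0.17 with upper-quartile scaling, and with TMM scaling 104 of the 189 lay below 0. Of the called receptor genes, 5 rises and 10 falls of the 189 tested were at least 2-fold, against 1180 and 327 of all 15404 tested genes. At that size the share of falls was above that of all genes and the share of rises below it, and neither difference was tested.

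The shares of calls also varied with the level of a gene. Of the 36 receptor genes with a mean of at least 10 CPM, 1 rose and 8 fell (22.2%), against 12.01% and 24.6% of all tested genes at that level. Of the 108 between 1 and 10 CPM, 3 rose (2.78%) and 7 fell (6.48%), against 10.6% and 5.11% of all genes. Of the 45 below 1 CPM, 2 rose (4.44%) and 0 fell, against 14.2% and 0.849%. Falls among receptor genes were near the share of all genes in each of these ranges, and rises were below it in each.

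**Figure D2:**
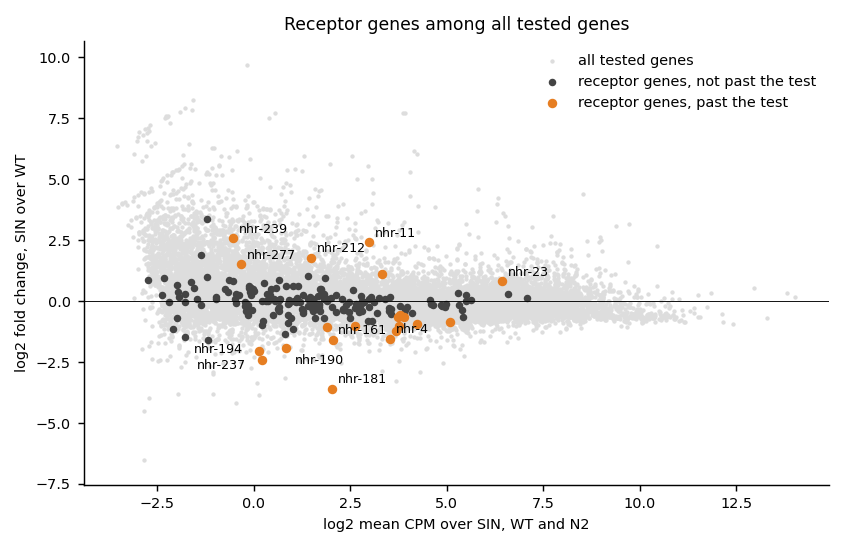
Log2 fold change of SIN over WT against log2 mean CPM for all 15404 tested genes (grey) and the 189 receptor genes (dark, or orange where past the test). Receptor genes lie mostly at low and middle levels, with nhr-181 the lowest called point at -3.59 and nhr-239 the highest called one at 2.58.

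**Figure D3:**
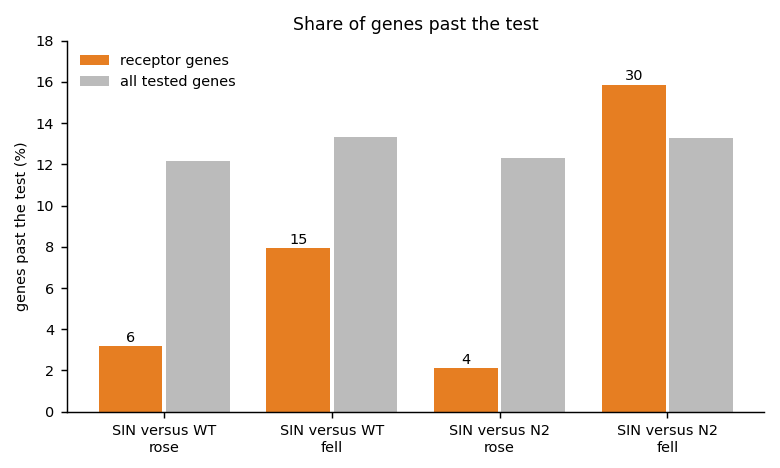
Share of receptor genes (orange, with the number of genes) and of all tested genes (grey) that rose or fell in SIN versus WT and in SIN versus N2, in percent. Rises of receptor genes are at 3.17% and 2.12%, beside 12.1% and 12.3% of all genes, and falls at 7.94% and 15.9%, beside 13.3% in both comparisons.

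The most abundant receptor gene that rose was nhr-23, the worm counterpart of the vertebrate ROR receptors, which drives moulting in larvae and is also needed for sperm formation (chromosome I, 7214745 to 7221299, plus strand, WBcel235). It had 122 and 118 CPM in SIN, 67.5 and 69.6 CPM in WT, with 69.1 and 73.2 CPM in N2. Both SIN libraries lay above all others and the WT and N2 values adjoined each other. The difference from WT was 1.75-fold (log2 fold change 0.81 ± 0.08, SE, edgeR adjusted p = 0.00237); without WT replicate 1 the adjusted p was 0.0531. Sperm marker genes were higher in SIN as well: 3 of 5 tested rose in SIN versus WT and their summed level was 66.1 and 63.1 CPM in SIN, 15.01 and 20.5 CPM in WT, with 11.1 and 9.03 CPM in N2, with none at 0 in all libraries, and their part in the nhr-23 result was not tested.

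Larger rises were seen in less abundant genes. For nhr-11 (chromosome IV, 9070003 to 9073622, plus strand) the SIN libraries had 19.2 and 12.1 CPM, the WT libraries 3.11 and 2.76 CPM and the N2 libraries 6.29 and 4.08 CPM. SIN did not overlap either strain, and the rise over WT was 5.34-fold (log2 2.42 ± 0.32, SE, adjusted p = 0.00592, edgeR). For nhr-239 (chromosome III, 2561710 to 2566595, plus strand) the values were 1.46 and 1.51 CPM in SIN, 0.245 and 0.245 CPM in WT, with 0.281 and 0.420 CPM in N2. These are 61 and 54 reads in SIN, 10 and 8 in WT and 13 and 17 in N2, and the rise over WT was 5.99-fold (log2 2.58 ± 0.40, SE, adjusted p = 0.00847, edgeR).

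The other rises were those of nhr-76, nhr-212 and nhr-277. NHR-76 is known to carry the serotonin signal for fat loss in the intestine; its gene had 12.5 and 14.1 CPM in SIN, 6.43 and 5.98 CPM in WT, with 11.4 and 9.50 CPM in N2 (log2 1.10 ± 0.18 over WT, SE, edgeR adjusted p = 0.0102). SIN lay above all other libraries here, but by little over N2, and the N2 values were also above those of WT. For nhr-212 there were 4.25 and 3.24 CPM in SIN, 1.12 and 1.04 CPM in WT, with 4.45 and 2.77 CPM in N2 (log2 1.79 ± 0.33 over WT, adjusted p = 0.0138). SIN lay within the N2 range, so this call rests on the low WT values. The level of nhr-277 was 1.29 and 1.17 CPM in SIN, 0.342 and 0.522 CPM in WT, with 0.821 and 0.618 CPM in N2 (log2 1.52 ± 0.39, adjusted p = 0.0342), with SIN above the rest.

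Of these rises, the call of nhr-11 was lost without SIN replicate 1 or either WT library (highest adjusted p 0.0657 in edgeR). Those of nhr-239, nhr-76, nhr-212 and nhr-277 were lost without any single SIN or WT library (highest adjusted p 0.0946, 0.103, 0.112 and 0.247).

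A receptor gene with a still larger fitted difference did not pass. The level of nhr-247 was 0.478 and 0.698 CPM in SIN, 0.0489 and 0.0614 CPM in WT, with 0.151 and 1.14 CPM in N2 (log2 3.35 ± 1.12 over WT, SE, adjusted p = 0.0734, edgeR). That is 20 and 25 reads in SIN, 2 and 2 in WT, and 7 and 46 in N2; the SIN values fell between the N2 libraries. It is named here because its size was seen.

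All 15 receptor genes that fell in SIN versus WT had both SIN libraries below all 4 WT and N2 libraries. Over the whole family this was so of 52 of 189 genes (27.5%), against 24.6% of all tested genes, and 13 (6.88%) had both SIN libraries above the other 4, against 23.7% of all tested genes. The 15 falls were chosen for low SIN against WT, so SIN lying below WT in them is no added support. The share among the falls of all tested genes was not counted. The deepest fall was that of nhr-181 (chromosome V, 4095040 to 4100541, plus strand), with 0.454 and 0.419 CPM in SIN, 5.53 and 5.06 CPM in WT, with 7.82 and 5.17 CPM in N2. The SIN libraries held 19 and 15 reads of it, the WT libraries 226 and 165, and the N2 libraries 362 and 209. It fell by 3.59 ± 0.31 on the log2 scale relative to WT (SE, edgeR adjusted p = 0.00140), and its call held with any library left out (highest adjusted p 0.0409).

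The other fall whose call held with any library left out was that of nhr-4 (chromosome IV, 9879329 to 9882152, plus strand). It had 5.16 and 4.80 CPM in SIN, 15.01 and 13.99 CPM in WT, with 15.3 and 14.99 CPM in N2. WT and N2 were nearly alike and SIN was at about a 2.91-fold lower level (log2 -1.54 ± 0.16, SE, adjusted p = 0.00245, edgeR; highest adjusted p 0.0429 with a library left out). Exons of F32B6.3 overlap this gene on the opposite strand. The kit was stranded, but no source used here gives the strand setting of the counting. Whether reads of F32B6.3 entered the count of nhr-4 is therefore not known.

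**Figure D4:**
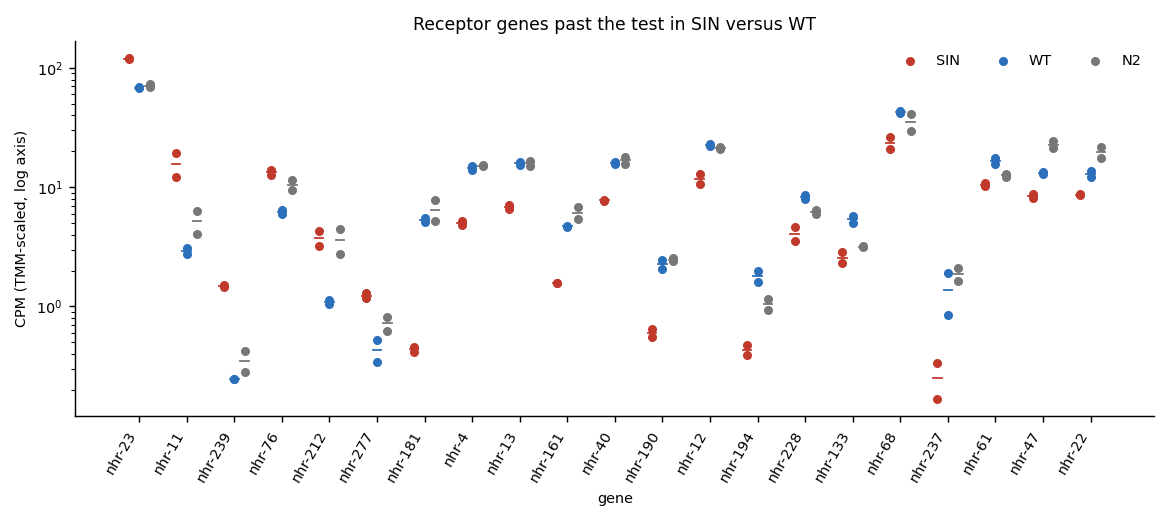
TMM-scaled CPM on a log axis of the 21 receptor genes past the test in SIN versus WT, rises on the left and falls on the right, each in order of p; points are libraries (2 per strain), bars are means. In the 15 falls both SIN points are below all WT and N2 points, and in nhr-212 the SIN points lie within the N2 range.

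Several receptors of known function were among the falls. NHR-13 is a binding partner of NHR-49; its gene (chromosome V, 2192485 to 2196827, plus strand) had 7.05 and 6.59 CPM in SIN, 16.4 and 15.3 CPM in WT, with 16.6 and 15.1 CPM in N2. The WT and N2 values were alike and the fall was 2.32-fold (log2 -1.22 ± 0.16, SE, edgeR adjusted p = 0.00523). NHR-40 acts in embryonic and larval development, including that of muscle; its gene had 7.86 and 7.70 CPM in SIN, 16.3 and 15.6 CPM in WT, with 18.05 and 15.5 CPM in N2 (log2 -1.03 ± 0.16, adjusted p = 0.00802). NHR-68 turns on the propionate shunt, a route that burns propionate when vitamin B12 is short; its gene had 21.03 and 26.2 CPM in SIN, 43.6 and 42.1 CPM in WT, with 29.7 and 40.9 CPM in N2 (log2 -0.86 ± 0.19, adjusted p = 0.0218). For both, SIN lay below every other library, though for nhr-68 an N2 library came close.

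Among receptors whose function is less known, nhr-161 had 1.58 and 1.56 CPM in SIN, 4.74 and 4.63 CPM in WT, with 6.87 and 5.39 CPM in N2 (log2 -1.58 ± 0.23, edgeR adjusted p = 0.00765). The gene nhr-12 had 12.9 and 10.6 CPM in SIN, 22.96 and 22.1 CPM in WT, with 21.03 and 21.9 CPM in N2 (log2 -0.94 ± 0.15, adjusted p = 0.00947). In both, the replicates of SIN and WT were closer to each other than the strains were. Lower still in abundance, nhr-190 had 0.645 and 0.558 CPM in SIN, 2.47 and 2.06 CPM in WT, with 2.40 and 2.55 CPM in N2 (log2 -1.90 ± 0.29, adjusted p = 0.00819). The annotated pseudogene nhr-194 had 0.478 and 0.391 CPM in SIN, 1.61 and 1.99 CPM in WT, with 1.15 and 0.940 CPM in N2 (log2 -2.04 ± 0.34, adjusted p = 0.0106).

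In nhr-228 and nhr-133 the WT libraries were the high ones and N2 lay between the strains. The levels of nhr-228 were 4.61 and 3.54 CPM in SIN, 7.95 and 8.62 CPM in WT, with 5.92 and 6.48 CPM in N2 (log2 -1.02 ± 0.22 against WT, adjusted p = 0.0194, edgeR). Those of nhr-133 were 2.29 and 2.85 CPM in SIN, 5.06 and 5.74 CPM in WT, with 3.13 and 3.19 CPM in N2 (log2 -1.07 ± 0.23, adjusted p = 0.0216). Counting was thinnest for nhr-237, with 14 and 6 reads in SIN, 35 and 62 in WT and 97 and 66 in N2. Its fall by 2.42 ± 0.55 on the log2 scale (adjusted p = 0.0241) lay between log2 -3.02 and -1.75 when a library was left out.

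The remaining falls were nhr-61 (log2 -0.66 ± 0.15, edgeR adjusted p = 0.0249), nhr-47 (log2 -0.64 ± 0.15, adjusted p = 0.0281) and nhr-22 (log2 -0.58 ± 0.17, adjusted p = 0.0498). Of these, nhr-61 and nhr-22 lie outside the naming rule and are given to complete the count, while nhr-47 is named by its fall in SIN versus N2. On the other strand, exons of W01D2.1 overlap nhr-61 and exons of hpo-15 overlap nhr-47. The calls of nhr-13 and nhr-12 were lost without SIN replicate 2 or either WT library (highest adjusted p 0.0736 and 0.0994). Those of nhr-161, nhr-40, nhr-190, nhr-194, nhr-228, nhr-133, nhr-68, nhr-237 and nhr-47 were lost without any single SIN or WT library (highest adjusted p between 0.0818 for nhr-161 and 0.174 for nhr-47). With either WT library left out, 2 falls remained, those of nhr-181 and nhr-4.

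Sorted by known role, the called receptor genes were few in each list, and the lists share some members. Of 11 receptors of fat and nutrient metabolism, 1 rose in SIN versus WT (nhr-76), 2 fell (nhr-13 and nhr-68) and 8 did not pass, with a median log2 fold change of -0.11, against 0.04 for all tested genes. The summed level of the list was 375 and 360.1 CPM in SIN, 383 and 374 CPM in WT, with 383 and 429.8 CPM in N2, with N2 replicate 2 the highest and SIN replicate 2 the lowest. Beside NHR-49 itself, whose gene was at 143 and 135 CPM in SIN, 126 and 129 CPM in WT, with 143 and 133 CPM in N2, its partner gene nhr-80 had 10.6 and 9.12 CPM in SIN, 8.66 and 9.33 CPM in WT, with 8.93 and 9.92 CPM in N2. Both overlapped N2 and did not pass (adjusted p = 0.311 and 0.613 against WT, edgeR). The partner of NHR-68 in the propionate shunt, nhr-10, had 27.5 and 25.2 CPM in SIN, 30.5 and 29.1 CPM in WT, with 33.3 and 28.8 CPM in N2 (adjusted p = 0.368); SIN was below the other libraries, without passing.

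Of 9 receptors of moulting and development, nhr-23 rose and nhr-40 fell, and 7 did not pass in SIN versus WT, with log2 fold changes from -1.59 to 0.97. The NR5A-type receptor gene nhr-25, which acts in moulting and in epidermal and vulval development, had 2.22 and 1.81 CPM in SIN, 1.05 and 1.01 CPM in WT, with 11.97 and 3.29 CPM in N2. SIN did not overlap WT, but the N2 libraries, which enter the shared estimate of spread, lay far apart, and the adjusted p was 0.293 against WT and 0.0591 against N2 (edgeR). With only the SIN and WT libraries in the fit the adjusted p against WT was 0.0224 (log2 0.97), and without N2 replicate 1 or 2 it was 0.0172 and 0.00906. The spermatheca receptor gene nhr-6, of the NR4A type, had 2.01 and 1.51 CPM in SIN, 2.00 and 1.60 CPM in WT, with 3.83 and 2.89 CPM in N2. Its SIN and WT values overlapped and both lay below N2, without passing (adjusted p = 0.943 for SIN versus WT and 0.0655 for SIN versus N2).

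The 9 receptors of families shared with insects and vertebrates held 1 rise in SIN versus WT, nhr-23, and 0 falls, with a median log2 fold change of -0.04. Among the others were nhr-67, a Tailless-type receptor gene that controls the anchor cell, at 0.836 and 0.726 CPM in SIN, 0.440 and 0.583 CPM in WT, with 2.40 and 0.544 CPM in N2, and nhr-85, a Rev-erb-type gene of larval timing, at 0.717 and 0.558 CPM in SIN, 0.685 and 0.675 CPM in WT, with 0.648 and 1.06 CPM in N2. Neither passed (adjusted p = 0.561 and 0.892 in edgeR), and nhr-85 overlapped across the strains. Of the 6 receptors of stress and toxin responses, 0 passed in either direction in SIN versus WT. They include nhr-8, which acts in cholesterol balance and toxin resistance, at 10.1 and 13.9 CPM in SIN, 14.01 and 16.4 CPM in WT, with 5.47 and 10.5 CPM in N2 (adjusted p = 0.497), and nhr-86, described further with the 22G genes. Exons of other genes overlap nhr-6, nhr-8 and nhr-85 on the other strand.

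Genes around the receptors were looked at as lists as well. Of 3 tested receptor genes that carry no nhr number (daf-12, sex-1 and fax-1), 0 passed in SIN versus WT, and unc-55 and odr-7 had too few reads to be tested. The steroid hormone receptor gene daf-12 had 10.7 and 13.03 CPM in SIN, 10.1 and 10.4 CPM in WT, with 12.1 and 12.8 CPM in N2, overlapping ranges for SIN and N2 with WT at the low end (adjusted p = 0.401, edgeR). Of 9 tested coregulators and enzymes of hormone synthesis, 0 passed in SIN versus WT. MDT-15 is the Mediator subunit through which NHR-49 acts, and its gene was at 154 and 170 CPM in SIN, 152 and 153 CPM in WT, with 191 and 154 CPM in N2 (adjusted p = 0.636).

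Of 10 genes known to be controlled by a named receptor, 2 rose and 3 fell in SIN versus WT. The rises were fat-5, a palmitate desaturase gene under NHR-49, with 60.9 and 48.8 CPM in SIN, 11.2 and 11.2 CPM in WT, with 41.6 and 66.7 CPM in N2 (log2 2.29, edgeR adjusted p = 0.00347), and cyp-35D1, a toxin-metabolising cytochrome P450 gene under NHR-176 (log2 1.48, adjusted p = 0.0105). In both the WT libraries were the low ones and SIN was near N2. The falls were 3 genes of the propionate shunt. The enzyme gene acdh-1 had 373 and 615 CPM in SIN, 1091 and 963 CPM in WT, with 723 and 1103 CPM in N2 (log2 -1.06, adjusted p = 0.0479), hphd-1 had 179 and 272 CPM in SIN, 507 and 451 CPM in WT, with 278 and 442 CPM in N2 (log2 -1.08, adjusted p = 0.0401), and alh-8 fell by 0.54 on the log2 scale (adjusted p = 0.0277). SIN was below both WT libraries in each of these. A further shunt gene, hach-1, did not pass (log2 -0.74, adjusted p = 0.0835). Intestinal marker genes, of which 1 of 6 rose, 0 fell and none was at 0, summed to 786 and 1063 CPM in SIN, 1264 and 1332 CPM in WT, with 1086 and 1821 CPM in N2; their part in these results was not tested.

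The comparison of SIN with N2 shares the SIN libraries with the comparison above, so the values of both are given side by side. In SIN, 4 of 189 receptor genes rose relative to N2 (2.12%), against 12.3% of all tested genes, and 30 fell (15.9%), against 13.3% of all tested genes. The median log2 fold change was -0.23 for receptor genes and -0.07 for all tested genes, with 134 of 189 below 0. Of the calls among receptor genes, 2 rises and 20 falls were at least 2-fold, against 1162 and 616 among all 15404 tested genes. At that size too the share of falls was above that of all genes and the share of rises below it, which was not tested. Of the 30 falls, 11 were also called in SIN versus WT, and of the 4 rises 3 were.

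The receptor genes with the firmest differences from N2 were largely those named already. The log2 fold changes against N2 were -3.89 ± 0.31 (SE) for nhr-181, -1.60 ± 0.16 for nhr-4, -1.96 ± 0.24 for nhr-161, -1.22 ± 0.16 for nhr-13 and 0.76 ± 0.08 for nhr-23, beside -3.59, -1.54, -1.58, -1.22 and 0.81 against WT (adjusted p against N2 of 0.000788, 0.00167, 0.00325, 0.00426 and 0.00224, edgeR). In all of these, WT and N2 were close together and SIN apart. For nhr-239 the log2 fold change against N2 was 2.08 ± 0.38 (adjusted p = 0.0128) and for nhr-11 it was 1.59 ± 0.31 (adjusted p = 0.0154). Leaving out a SIN library ended both of these calls (highest adjusted p 0.0854 and 0.112), and leaving out SIN replicate 1 ended that of nhr-161 (0.0507).

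In a second group of falls against N2, WT lay below N2 as well, without passing the test. The clearest by p was nhr-47, with 8.13 and 8.85 CPM in SIN, 12.9 and 13.4 CPM in WT, with 24.2 and 21.3 CPM in N2. The 3 strains did not overlap and stood in the order SIN, WT, N2, with a fall against N2 by 1.42 ± 0.15 on the log2 scale (SE, edgeR adjusted p = 0.00227). WT lay between the other strains, and nhr-47 also fell in SIN versus WT (log2 -0.64, edgeR adjusted p = 0.0281). Outside the naming rule, and chosen after its values were seen, nhr-105 had 23.1 and 21.3 CPM in SIN, 25.01 and 25.7 CPM in WT, with 42.2 and 37.7 CPM in N2. SIN and WT were near each other and both were below N2 (log2 -0.85 ± 0.13, adjusted p = 0.00672 for SIN versus N2; log2 -0.66, adjusted p = 0.0978 for WT versus N2).

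The abundant nhr-17 was of this kind, with 22.8 and 36.6 CPM in SIN, 31.3 and 34.1 CPM in WT, with 59.5 and 56.7 CPM in N2. SIN and WT overlapped and N2 was above both (log2 -0.97 ± 0.22 for SIN versus N2, edgeR adjusted p = 0.0244; adjusted p = 0.147 for WT versus N2). The gene C02B4.4 shares exon positions with it on the same strand. The call was lost without SIN replicate 1, WT replicate 2 or N2 replicate 1, and with only the SIN and N2 libraries in the fit (highest adjusted p 0.0766). NHR-2 acts in the early embryo, and nhr-2 had 27.9 and 22.6 CPM in SIN, 28.1 and 26.3 CPM in WT, with 49.5 and 35.6 CPM in N2 (log2 -0.75 ± 0.19 for SIN versus N2, adjusted p = 0.0332).

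Genes first read from the embryo's own genome, a mark of the eggs carried, moved in the same comparison: 3 of 7 tested fell in SIN versus N2 and 0 rose, and their summed level was 21.8 and 19.7 CPM in SIN, 30.7 and 26.0 CPM in WT, with 70.7 and 33.3 CPM in N2, with none at 0. Their part in the receptor results was not tested. The call of nhr-2 was lost without any single SIN or WT library (highest adjusted p 0.183), and so was that of nhr-48, a receptor gene related to the vitamin D receptor group, at 18.7 and 20.1 CPM in SIN, 21.8 and 20.4 CPM in WT, with 37.03 and 26.1 CPM in N2 (adjusted p = 0.0369, highest 0.187). With only the SIN and N2 libraries in the fit neither passed (adjusted p = 0.0838 for nhr-2 and 0.102 for nhr-48). For nhr-48 SIN was below all other libraries, with a WT library close to it.

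The rise called against N2 and not against WT was that of nhr-86, whose protein senses a metabolite of a pathogenic bacterium and switches on immune genes of the intestine. It had 54.9 and 42.0 CPM in SIN, 38.8 and 38.4 CPM in WT, with 30.5 and 28.7 CPM in N2. The strains stood in the order SIN, WT, N2 without overlap (log2 0.71 ± 0.15 for SIN versus N2, adjusted p = 0.0194; log2 0.33 ± 0.15 for SIN versus WT, adjusted p = 0.154, edgeR). The call was lost without SIN replicate 1 or WT replicate 1 (highest adjusted p 0.0850), and exons of comt-3 overlap the gene on the other strand. Among the lists, nhr-23 was the 1 conserved-family gene that rose and nhr-48 the 1 that fell in SIN versus N2, and of the moulting and development list nhr-23 rose while nhr-2 and nhr-40 fell. Of the coregulators and hormone enzymes 2 fell in SIN versus N2, din-1, which encodes a corepressor of DAF-12 (log2 -0.85, adjusted p = 0.0335), and dpy-22, a Mediator subunit gene (log2 -0.88, adjusted p = 0.0388), and of the 10 known targets 0 passed. Of the fat and nutrient list 1 fell, nhr-13, and 0 rose, and of the stress list 1 rose, nhr-86, and 0 fell.

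WT versus N2 sets a strain with the csr-1 deletion and its transgenes against one with neither. Here 0 of 189 receptor genes rose and 0 fell in edgeR's test, where 0.0454% and 0.0649% of all tested genes did. At an unadjusted p under 0.05 in edgeR, 8 were higher and 31 lower in WT, against 1353 and 1738 of all 15404 tested genes. DESeq2 called 0 rises and 9 falls among the receptor genes, of which 23 had no adjusted p, against 571 rises and 546 falls among all tested genes. The median log2 fold change was -0.21 for receptor genes and -0.03 for all tested genes, with 129 of 189 below 0. By value, nhr-25 was the furthest below N2 among the role lists (log2 -2.88, adjusted p = 0.115), and nhr-8 the furthest above (log2 0.93, adjusted p = 0.208).

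Comparisons with N2 rest on a pair of libraries that differed from each other. In log2 CPM with a prior count, 16 receptor genes were at least 2-fold higher in N2 replicate 1 and 3 at least 2-fold higher in N2 replicate 2, together 10.1% of the members, against 13.03% of all tested genes. The median log2 difference, replicate 1 minus replicate 2, was 0.23 for the members and 0.01 for all tested genes. The members' medians against N2 were of similar size, -0.23 for SIN and -0.21 for WT. Besides nhr-25, nhr-67, nhr-91 and nhr-60 were high in replicate 1, with 11.97, 2.40, 4.30 and 0.865 CPM there and 3.29, 0.544, 1.51 and 0.198 CPM in replicate 2. High in replicate 2 was nhr-114, with 24.5 CPM in replicate 1 and 92.0 CPM in replicate 2. Epidermal collagen transcripts differed between the same libraries in both directions: dpy-7, made around moults, was at 8.80 CPM in replicate 1 and 0.445 CPM in replicate 2, and col-19, of adults, at 282 CPM in replicate 1 and 1214 CPM in replicate 2. Their part was not tested. Without N2 replicate 1 the members' median log2 fold change was -0.13 for SIN versus N2 and -0.06 for WT versus N2. Without N2 replicate 2 these medians were -0.30 and -0.24. All tested genes had medians of -0.03 and -0.01 without replicate 1, and of -0.02 and -0.01 without replicate 2.

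The deposited table also marks genes with 22G RNAs, the small guide RNAs of CSR-1, in earlier libraries, and genes expressed in the germline. These columns describe genes and not the 6 libraries. Of the 190 receptor genes, 5 were in both 22G lists (2.63%), against 26.7% of tested genes in the list of Claycomb and 34.1% in that of Conine. The 5 were nhr-86, nhr-23, nhr-66, nhr-49 and nhr-274, all among the 14 most abundant members. Their normalized reads by Claycomb, per the file headers, were 325, 280, 253, 116 and 46.7, and their 22G reads in the CSR-1 precipitate of Conine were 115, 103, 51.4, 69.0 and 15.2 RPM (reads scaled to library size).

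All 5 receptor genes with listed 22G RNAs had a positive log2 fold change in SIN over WT. The values were 0.33 ± 0.15 (SE) for nhr-86, 0.81 ± 0.08 for nhr-23, 0.28 ± 0.10 for nhr-66, 0.12 ± 0.08 for nhr-49 and 0.25 ± 0.12 for nhr-274. In the fit of all 6 libraries nhr-23 passed the test, and the adjusted p of the other 4 lay between 0.0957 and 0.311 (edgeR). With only the SIN and WT libraries in the fit nhr-66 passed as well (adjusted p = 0.0294), as it did without N2 replicate 1 or 2 (0.0337 and 0.0317); with upper-quartile scaling nhr-66 and nhr-49 passed (0.0273 and 0.0496). Of the 3726 tested genes on both 22G lists, 35.96% had a positive value, 15.1% rose and 26.6% fell, with a median log2 fold change of -0.16, against a median of 0.28 for the 5 receptor genes. In nhr-274 the levels were 54.9 and 49.4 CPM in SIN, 46.3 and 41.5 CPM in WT, with 42.1 and 37.03 CPM in N2, so that SIN lay above the other strains, as it did for nhr-86, nhr-23 and nhr-66. For nhr-49 it did not.

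A further 19 receptor genes were marked as expressed in the germline with no 22G RNA listed. Of these 0 rose and 5 fell in SIN versus WT, namely nhr-12, nhr-40, nhr-61, nhr-68 and nhr-181, and 3 of 19 had a positive log2 fold change. Their median was -0.37, against -0.26 over all 1196 tested genes of that class, of which 6.94% rose and 23.8% fell. The 165 tested receptor genes in neither class had 5 rises and 10 falls with a median of -0.02, against 9.99% rises and 4.08% falls and a median of 0.19 for the 8280 tested genes in neither class. Marker genes of epidermis (5 tested), body wall muscle (5) and neurons (7) gave 0 calls in SIN versus WT. The germline was present in all libraries: 5 germline marker genes, of which 1 rose and 2 fell in SIN versus WT, summed to 5055 and 5649 CPM in SIN, 5263 and 5213 CPM in WT, with 4987 and 5167 CPM in N2. These sums hide opposite changes: glh-1 rose (1481 and 1764 CPM in SIN, 514 and 548 CPM in WT), while gld-1 (log2 -0.52) and oma-1 (log2 -0.32) fell. The others, cgh-1 (log2 -0.40) and pgl-1 (log2 0.21), did not pass. The sums thus do not show an unchanged germline share.

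**Figure D5:**
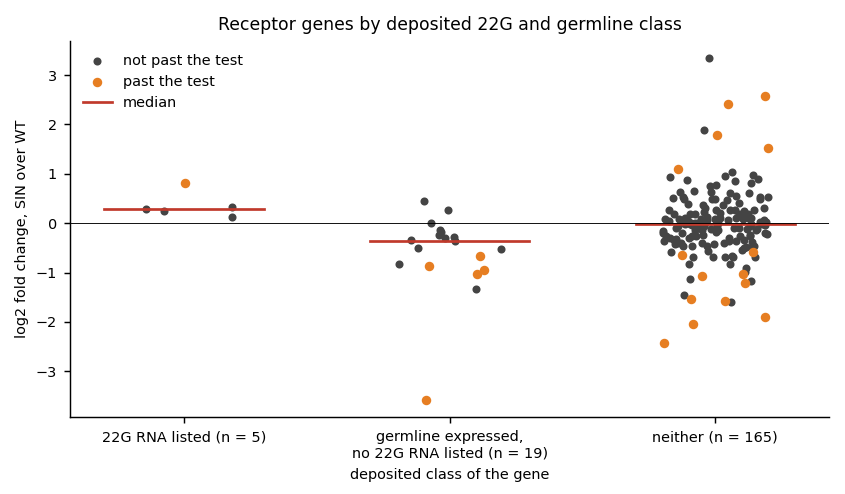
Log2 fold change of SIN over WT for 189 receptor genes, split by the deposited 22G and germline columns; each point is a gene (orange where past the test) and the red line is the median. The 5 genes with listed 22G RNAs lie between 0.12 and 0.81, and the median of the 19 germline-expressed genes without is -0.37.

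The receptor genes are clustered in the genome. Chromosome V carried 120 of the 190 kept genes (63.2%), against 19.7% of tested genes, chromosome IV 27, chromosome X 17, and chromosomes I, II and III between 6 and 10 each. Chromosome V held 11 of the 15 falls and 1 of the 6 rises in SIN versus WT, and chromosome IV held 3 rises and 1 fall. The called shares of all tested genes were not worked out by chromosome. The median log2 fold change was -0.06 for the receptor genes of chromosome V and 0.10 for all its tested genes.

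Of the kept genes, 90 lay directly beside another receptor gene. Of 53 adjacent pairs with both genes tested, 38 had the same sign of log2 fold change in SIN over WT and 0 had both genes called. Of these pairs 8 held a called gene, and in 6 of the 8 the neighbour had the same sign, as in nhr-133 (log2 -1.07) beside nhr-184 (log2 -0.40) and nhr-212 (log2 1.79) between nhr-130 (log2 0.13) and nhr-211 (log2 0.55). In the other 2 the sign was opposite, with nhr-161 (log2 -1.58) beside nhr-163 (log2 0.27) and nhr-237 (log2 -2.42) beside nhr-238 (log2 0.48). How often adjacent pairs among all tested genes share a sign was not counted, so these counts cannot be called particular to receptor genes. Neighbouring receptor genes are often related copies, and no source used here says whether reads matching more than 1 gene were dropped. By annotation 184 of the kept genes are protein-coding and 5 are pseudogenes (nhr-83, nhr-144, nhr-151, nhr-194 and nhr-220), 7 share exon positions with another gene on the same strand and 22 on the other strand.

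The authors' deposited table gives its own adjusted p for 187 of the receptor genes in SIN versus WT. Of these, the authors' deposited table lists 6 as higher and 19 as lower below 0.05, and they include the 6 rises and 15 falls called here. Over all 15160 genes with an adjusted p there, it lists 1937 as higher and 2558 as lower. Both sets of calls come from the same libraries.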

How the data were processed

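Poly(A) RNA of 100 adults per library was sequenced with a stranded kit as 50-base single reads, per the labels' protocols. Per the file headers, the authors deposited raw read counts for each gene and library and 1 RPKM value per strain. That RPKM equalled a mean over libraries, recomputed here from counts and gene lengths, in 100% of genes (relative tolerance 1e-06). The authors also deposited their adjusted p-value and log2 fold change for SIN versus WT, 22G RNA as a score (normalized reads listed from Claycomb) and as RPM (Conine), and an enrichment fraction. Build WBcel235 and the tools DESeq, DESeq2, HTSeq and STAR are named in the submitters' processing notes without roles. No source used here gives the annotation release or the strand setting.

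The counts went into the quasi-likelihood test of edgeR (version 4.0.16 with limma 3.58.1 in R 4.3.3; TMM scaling, robust, all 6 libraries, 3 strain means, 3 residual degrees of freedom, prior 3.58). A filter with a minimum count of 10 and a total of 15 left 15404 of 46748 genes and removed at most 0.0476% of a library's counts; the common biological coefficient of variation came to 0.219. Benjamini-Hochberg adjustment ran over all tested genes within each comparison, with a threshold of 0.05. CPM are TMM-scaled, and SE is the size of the log2 fold change over the square root of its quasi-likelihood F. The procedure was tested on simulated data. DESeq2 1.42.0, other scalings, filters, a replicate block and the omission of each library were alternatives. Positions and overlaps come from the Ensembl WBcel235 annotation, which matched 189 of 190 kept genes by gene ID.

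Named genes are, by rule, up to 12 called members per direction in SIN versus WT and 5 in the other comparisons, by p and without overlap between the strains, the 6 with the highest RPKM, members of the role lists, and members with listed 22G RNA; exceptions are marked. The members and lists were chosen with earlier results of these data known. Groups follow the strain label of each sample.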

Additional observations from a re-analysis of the deposited data

How the results depend on the processing

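The direction of the members' calls held under most settings, and their number did not. Calls over all tested genes moved too, also when a library was left out. In SIN versus WT they were 1871 rises and 2051 falls of 15404 genes. They became 2736 and 3031 of 24486 without a filter on low counts, and 3206 and 3315 of 14782 with only the 4 libraries compared. In SIN versus N2, 1899 and 2043 became 1289 and 625 with only its 4 libraries. The counts that follow are those of the members unless stated. In SIN versus WT, 6 rises and 15 falls became 10 and 23 without a filter on low counts and 12 and 30 when only the 4 libraries compared entered the fit; leaving out a library gave 0 to 12 rises and 2 to 31 falls. The low ends (0 rises and 2 falls without WT replicate 1) come from fits in which an arm had 1 library, assumed to vary like the others, and the high ends (12 rises, with 30 or 31 falls) from leaving out an N2 library. In SIN versus N2, 4 rises and 30 falls became 16 falls with only the 4 libraries compared, and 1 to 10 rises and 6 to 49 falls with a library left out. In WT versus N2, DESeq2 gave 9 falls, no filter on low counts 1 rise and 18 falls, and leaving out a library 0 to 5 rises and 0 to 30 falls; the cause was not tested. With the replicate number as a block there were 7 rises and 19 falls in SIN versus WT, 5 and 37 in SIN versus N2, and 0 and 2 in WT versus N2; with 2 pairs per comparison the libraries share only a number. Deviations of same-numbered libraries from their strain means correlated across genes with r = 0.344 for SIN and WT, 0.377 for SIN and N2 and 0.236 for WT and N2. Upper-quartile scaling moved the median log2 fold change of SIN over WT to 0.09 for the members and 0.17 for all tested genes, with 8 rises and 13 falls of members; it moved rises to 65.5% of all calls, against 47.7%. Under every setting the members' median was below that of all tested genes, by 0.07 to 0.16 in SIN versus WT, 0.10 to 0.28 in SIN versus N2 and 0.05 to 0.23 in WT versus N2. Besides calls lost by leaving out a library, nhr-277 (SIN versus WT) and nhr-194 (SIN versus N2) lost theirs with DESeq2, nhr-47 (SIN versus WT) and nhr-48 (SIN versus N2) with upper-quartile scaling, and nhr-17, nhr-2, nhr-48 and nhr-194 (SIN versus N2) with only the 4 libraries compared. Calls were gained in SIN versus WT as well: with only the 4 libraries compared, nhr-66, nhr-114, nhr-25, nhr-91 and nhr-60 passed (adjusted p = 0.0294, 0.00576, 0.0224, 0.0145 and 0.0215), all 5 also without either N2 library; without a filter nhr-114, nhr-25, nhr-91, nhr-60 and nhr-45 did, and with upper-quartile scaling nhr-49 and nhr-66. With 2 libraries per strain and few reads for the members below 1 CPM, differences of these may not be detectable at this depth.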
